A study of Mus musculus with 6 samples.

Results

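The genes of cholesterol and fatty acid synthesis were followed in cultured mouse chondrocytes with and without deletion of Nf2. The set holds 32 genes of the 55401 in the deposited table, chosen by gene symbol for their known roles: 20 genes of sterol synthesis and its regulation and 12 genes of fatty acid synthesis, elongation and desaturation. Each of the 32 had a row, and each passed the filter on low counts, so none was left out of the test. The libraries were 3 of Nf2-knockout and 3 of control primary chondrocytes from cartilage tissue. Both groups carry the floxed Nf2 allele (Nf2f/f), deleted in the knockout cells, and the cells were cultured under differentiation. Under treatment, the labels of the knockout samples give TCF21 overexpression, which appears in none of their titles, and those of the other samples give control. The library names of both groups carry the mark D7, followed by cKO or CTL, and the labels do not explain D7. Beyond that mark, strain, age, the Cre driver, the time in culture and the source of replicates are not stated in the labels. The p-values therefore reflect the scatter of these 6 libraries alone, and that scatter may be technical.

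Cells make cholesterol from acetyl-CoA through the mevalonate pathway, which runs to farnesyl diphosphate, squalene and then lanosterol, and finish it in a series of demethylation, reduction and desaturation steps. The genes of these enzymes are driven together by SREBP2, the product of Srebf2, a transcription factor that is held in the endoplasmic reticulum by INSIG proteins while sterols are plentiful. SREBP1, the product of Srebf1, drives chiefly the genes that build, elongate and desaturate fatty acids. Sterols are also needed in cartilage as the lipid that is attached to hedgehog proteins, and inherited defects of several of these enzymes disturb the skeleton.

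Total counts ran from 50906043 to 63748798 per library. Nf2, which encodes the Hippo regulator merlin, was counted 4592, 6351 and 6503 times in the knockout libraries, in replicate order, and 7448, 7153 and 6979 times in the controls. It stood at 95.3 ± 6.59 CPM (counts relative to the scaled library total, mean ± SD, n = 3) in the knockout libraries and 127 ± 5.32 CPM in the controls (log2 fold change −0.41, edgeR adjusted p = 0.0305). Its call was lost when any 1 library was left out. Of 8 alternative analyses that kept all 6 libraries, 3 called it, with adjusted p from 0.0131 to 0.0959 over all 8. Tcf21 had 0, 2 and 0 counts in the knockout libraries and 0 in each control library, too few to test. The defining cartilage markers Col2a1, Acan and Sox9 were present, at mean levels over the 6 libraries of 40.1, 1.24 and 4.56 FPKM. FPKM are fragments scaled to gene length and library size. The most abundant of the 14 listed cartilage markers were Comp at 125 FPKM, Col2a1, and Cnmd at 20.9 FPKM. The fibroblastic collagen gene Col1a1 stood at 403 FPKM. Adipocyte markers were present too, with Adipoq at 36.9 FPKM, Plin1 at 3.04 FPKM and Cfd, the most abundant of those listed, at 82.0 FPKM. Fewer cells of a type and less RNA per cell cannot be told apart in such bulk libraries.

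Short motifs recur in the promoters of these genes. RefSeq promoter windows (GRCm38.p6, 250 bases before to 50 bases after the start site) were found for 25 of the 32 genes. The NF-Y box CCAAT, bound by a factor that works beside SREBP, was present on either strand in 14 of 16 sterol windows (87.5%) and 5 of 9 fatty acid windows (55.6%), against 37.4% of all 32851 windows. At least 2 such boxes were present in 8 of the 16 sterol windows (50%) and 2 of the 9 fatty acid windows (22.2%), against 11.7% of all windows. The E-box CACGTG was present in 3 of 16 sterol and 1 of 9 fatty acid windows, against 7.15% of all, and TCACNCCAC, a form of the sterol regulatory element, in 1 sterol window, that of Hmgcs1, against 1.24% of all. For Acaca the table gives a window within the gene, 65766 bases from its deposited start. These shares describe letters in a window and say nothing of binding. The 250 bases before the start are shown for Hmgcs1 (chr13:119690101-119690350, plus strand) as the window with the sterol element, Mvk (chr5:114444019-114444268, plus strand) as the window with the most NF-Y boxes, and Fasn (chr11:120824548-120824797, minus strand), Me1 (chr9:86695915-86696164, minus strand) and Elovl5 (chr9:77917115-77917364, plus strand) as the genes with the smallest p-values in the set. Capitals mark matches of the 3 motifs on either strand, so that ATTGG is the NF-Y box read on the other strand.
Hmgcs1: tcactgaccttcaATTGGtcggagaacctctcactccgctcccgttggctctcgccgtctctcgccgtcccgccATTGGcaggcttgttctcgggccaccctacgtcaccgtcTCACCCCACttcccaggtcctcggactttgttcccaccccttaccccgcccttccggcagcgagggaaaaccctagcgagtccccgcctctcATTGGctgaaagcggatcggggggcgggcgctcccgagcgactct
Mvk: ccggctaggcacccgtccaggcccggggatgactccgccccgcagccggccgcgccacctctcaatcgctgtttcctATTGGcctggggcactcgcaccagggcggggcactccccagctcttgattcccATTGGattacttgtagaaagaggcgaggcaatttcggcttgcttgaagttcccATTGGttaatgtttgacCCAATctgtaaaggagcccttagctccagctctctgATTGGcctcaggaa
Fasn: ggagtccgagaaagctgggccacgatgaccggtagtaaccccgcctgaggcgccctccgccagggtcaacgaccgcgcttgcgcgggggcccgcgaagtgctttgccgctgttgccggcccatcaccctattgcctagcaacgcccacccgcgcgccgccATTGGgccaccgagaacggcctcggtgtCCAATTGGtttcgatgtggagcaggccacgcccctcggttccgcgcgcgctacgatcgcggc
Me1: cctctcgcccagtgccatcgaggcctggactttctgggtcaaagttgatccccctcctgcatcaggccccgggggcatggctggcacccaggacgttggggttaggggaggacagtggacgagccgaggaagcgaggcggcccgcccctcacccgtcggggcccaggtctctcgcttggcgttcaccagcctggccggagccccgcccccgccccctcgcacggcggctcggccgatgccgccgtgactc
Elovl5: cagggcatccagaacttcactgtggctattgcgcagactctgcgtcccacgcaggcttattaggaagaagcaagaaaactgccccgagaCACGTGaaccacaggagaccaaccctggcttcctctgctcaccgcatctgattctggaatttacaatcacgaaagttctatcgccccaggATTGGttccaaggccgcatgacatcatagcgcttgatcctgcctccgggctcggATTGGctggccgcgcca
The Me1 window held none of the 3 motifs. The Fasn window held 3 NF-Y boxes, of which a pair overlap and are printed as CCAATTGG, and the Elovl5 window held 1 E-box and 2 NF-Y boxes.

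Transcripts of most of these genes lay close to control levels in the Nf2-knockout libraries. Of the 32 genes, 1 rose (Me1) and 1 fell (Elovl5) at an adjusted p under 0.05 in edgeR's quasi-likelihood test, both in the fatty acid subgroup. Among the 20 sterol genes 0 rose and 0 fell. Of all 18218 tested genes, 9.29% were called, with 4.11% higher and 5.18% lower in Nf2-knockout libraries. Higher genes made up 44.2% of those calls, and 61.5% with library totals in place of scaling factors. Of the 5862 tested genes with a mean CPM in the range of the members, 347 were called higher and 487 lower. Without adjustment, 1 of 20 sterol genes and 3 of 12 fatty acid genes had p under 0.05 in edgeR. The share was 24.8% of all tested genes and 34.3% of those in the range of the members. DESeq2 also called 0 sterol genes. The groups of 3 did not overlap for 7 of the 32 genes (21.9%), 5 higher and 2 lower in Nf2-knockout libraries. The share was 32.9% of all tested genes and 41.5% of those in the range of the members. For each of the 7 members without overlap an exact permutation test (two-sided) gave p = 0.1, the smallest value that 3 libraries a group allow.

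The median log2 fold change was 0.04 for the sterol genes and −0.01 for the fatty acid genes, against −0.01 for all tested genes. Signs were mixed, with 12 sterol genes above 0 and 8 below, and 6 fatty acid genes on each side. The median size of the change in either direction was 0.12 for sterol and 0.17 for fatty acid genes on the log2 scale, against 0.20 for the 5862 tested genes whose mean CPM lay between that of the lowest member (28.1 CPM) and the highest (645 CPM). A p-value that misses the threshold does not show that levels were equal, so the interval of each difference is given here. The 95% interval stayed within a 2-fold change in either direction for 30 of the 32 genes, all but Hmgcs1 and Scd2, against 87.2% of the tested genes in the same range of CPM. It stayed within 1.5-fold for 26 of the 32 (81.2%), against 62.5% in that range.

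**Figure D1:**
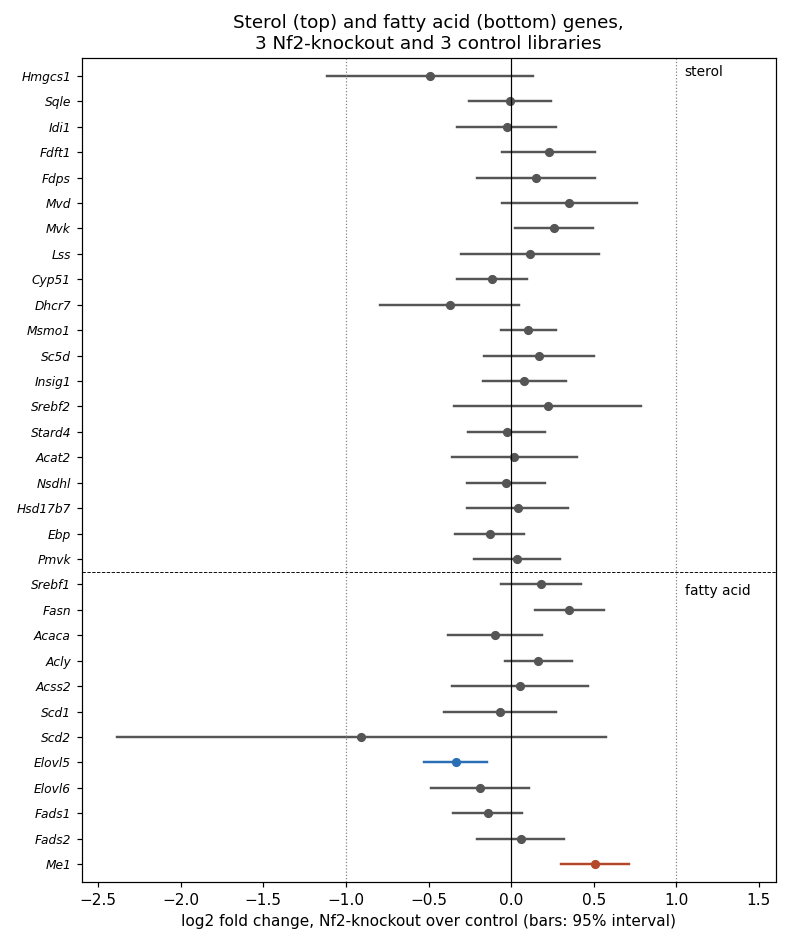
Log2 fold change of each of the 32 genes (dots) with its 95% interval (bars) from 3 Nf2-knockout and 3 control libraries, sterol genes above the dashed line and fatty acid genes below, with dotted lines at a 2-fold change. Me1 (red) and Elovl5 (blue) are the 2 called genes, and the interval of Scd2 is the widest, from −2.39 to 0.58.

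The first enzymes of the mevalonate pathway were near control levels except for wide scatter in Hmgcs1. Acat2, which joins acetyl-CoA units, measured 44.8, 61.7 and 51.2 CPM in the knockout libraries (replicates 1, 2 and 3, the order used throughout) and 42.5, 56.7 and 56.3 CPM in the controls (log2 fold change 0.02, 95% interval −0.36 to 0.40, edgeR adjusted p = 0.960). Hmgcs1, the synthase that commits acetoacetyl-CoA to the pathway (chromosome 13, 119690379 to 119708260, plus strand, GRCm38), measured 88.7, 192 and 175 CPM in the knockout libraries and 214, 230 and 198 CPM in the controls. Every Nf2-knockout library was below every control and replicate 1 of the knockout lay far under the rest, with the next lowest library at 1.98 times its level. The log2 fold change was −0.49 (SE 0.265, interval −1.12 to 0.13, edgeR adjusted p = 0.307), and −0.20 without Nf2-knockout replicate 1, so more than any other library it set the size of the difference. A gap of that size below the next library was found for 94 of the 5862 tested genes in the range, Hmgcs1 included, of which 13 were lowest in Nf2-knockout replicate 1.

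Mvk, mevalonate kinase, measured 50.8, 48.2 and 52.3 CPM in the knockout libraries and 39.9, 39.9 and 46.5 CPM in the controls. All 3 knockout values were above the controls, yet the difference did not pass over all genes (log2 fold change 0.26, interval 0.02 to 0.50, edgeR adjusted p = 0.164). Of the 20 sterol genes it alone had an unadjusted p under 0.05 in this fit, where 4 did with library totals in place of scaling factors. The next kinase, Pmvk, differed little at 29.4, 29.5 and 26.4 CPM against 25.7, 26.9 and 30.6 CPM (log2 fold change 0.04, interval −0.22 to 0.30). Mvd, the decarboxylase that follows, measured 50.8, 51.4 and 54.3 CPM in Nf2-knockout libraries, a narrow range, and 31.2, 40.3 and 51.1 CPM in controls, a wide one. The groups overlapped (log2 fold change 0.35, interval −0.06 to 0.76, edgeR adjusted p = 0.268). Without control replicate 1 the Mvd value was 0.19, and without control replicate 3 it was 0.54. Idi1, the isomerase of isopentenyl diphosphate, stood at 112 ± 13.2 against 114 ± 14.2 CPM (n = 3 each), and Fdps, which makes farnesyl diphosphate, at 155 ± 2.86 against 140 ± 29.4 CPM. Fdps ranged from 110 to 168 CPM among the controls and from 152 to 158 CPM among the knockouts, and its log2 fold change of 0.15 (edgeR adjusted p = 0.602) was 0.0011 without control replicate 1.

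The enzymes that make and close squalene showed no call. Fdft1, squalene synthase, measured 167, 153 and 140 CPM in the knockout libraries and 115, 148 and 130 CPM in the controls, with overlap between groups (log2 fold change 0.23, interval −0.05 to 0.51, edgeR adjusted p = 0.295). In GENCODE M21 it shares 774 exonic bases, 18.3% of its own, with Ctsb on the opposite strand. Ctsb, the gene of cathepsin B, is far more abundant and was lower in Nf2-knockout libraries (3160 ± 412 against 5854 ± 692 CPM, log2 fold change −0.89, edgeR adjusted p = 0.0118). Fdps shares 1124 exonic bases with Gm43738 on its own strand, a gene listed at 0 in all libraries. No source used here says whether the counting used strand, so the reads of the shared bases cannot be told apart and the Fdft1 value is uncertain. Sqle, the epoxidase that is a rate-setting step after squalene synthesis, measured 125, 133 and 123 CPM in the knockout libraries and 111, 141 and 130 CPM in the controls. Its means were 127 ± 5.40 and 127 ± 15.1 CPM, and the interval of its difference ran from −0.25 to 0.24 on the log2 scale. Lss, which closes the ring to lanosterol, stood at 66.7 ± 7.40 against 61.7 ± 14.6 CPM (log2 fold change 0.11, edgeR adjusted p = 0.751).

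The steps from lanosterol to cholesterol held 0 called genes as well. Msmo1, a C4 methyl oxidase, measured 228, 229 and 224 CPM in the knockout libraries and 217, 206 and 211 CPM in the controls, groups that did not overlap but whose means differed by a log2 fold change of only 0.10 (interval −0.06 to 0.27, edgeR adjusted p = 0.429). Cyp51, the lanosterol demethylase, measured 171, 192 and 184 CPM in the knockout libraries and 182, 210 and 203 CPM in the controls, with overlap (log2 fold change −0.12, interval −0.33 to 0.10). Nsdhl and Hsd17b7, which complete the removal of the C4 methyl groups, had log2 fold changes of −0.03 (interval −0.27 to 0.20) and 0.04 (interval −0.26 to 0.35). Ebp, a sterol isomerase, had −0.13 (interval −0.34 to 0.08) and Sc5d, a sterol desaturase, 0.17 (interval −0.16 to 0.50). Dhcr7, the reductase of the last step, measured 29.4, 31.5 and 28.3 CPM in Nf2-knockout libraries and 28.8, 47.2 and 39.5 CPM in controls. Control replicate 1 fell among the knockouts and the other controls lay above them (log2 fold change −0.37, interval −0.79 to 0.05, edgeR adjusted p = 0.255). Without control replicate 1 the Dhcr7 value was −0.54, with an adjusted p = 0.0618.

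The regulators of the sterol genes were also uncalled. Srebf2 (chromosome 15, 82147181 to 82205379, plus strand) measured 103, 116 and 111 CPM in Nf2-knockout libraries, which lay between the lower controls at 67.7 and 80.6 CPM and control replicate 2 at 135 CPM. The log2 fold change was 0.22 (SE 0.241, interval −0.35 to 0.79, edgeR adjusted p = 0.638) and ran from 0.03 without control replicate 1 to 0.57 without control replicate 2. Insig1, the sterol-regulated anchor of SREBP and itself an SREBP target, measured 239, 239 and 219 CPM in the knockout libraries and 199, 251 and 209 CPM in the controls (log2 fold change 0.08, interval −0.17 to 0.33). Stard4, a cytosolic sterol carrier that is likewise an SREBP target, stood at 58.3 ± 2.16 against 59.5 ± 5.72 CPM (log2 fold change −0.03, interval −0.26 to 0.20).

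The sterol genes tended to be low or high together in the same control library. Control replicate 1 was the lowest of the 3 controls for 15 of 20 sterol genes (75%), where it was the lowest for 35.5% of all tested genes. Control replicate 2 was the highest of the controls for 12 of 20 (60%), against 33.2% of all tested genes. The mean deviation of the 20 genes from their own means was −0.18, 0.12 and 0.01 on the log2 scale in the controls and −0.04, 0.06 and 0.04 in the knockout libraries, so the knockout libraries fell between the controls. This pattern was picked out after the values were seen, and the genes are not independent of each other. The median sterol log2 fold change was −0.03 without control replicate 1 and 0.09 without control replicate 2. Summed levels of macrophage markers (162, 433 and 214 CPM) and cartilage markers (721, 1045 and 1015 CPM) were also lowest in control replicate 1 and highest in control replicate 2. Those of adipocyte markers (1614, 1126 and 1587 CPM) and cycling-cell markers (398, 307 and 333 CPM) were lowest in control replicate 2. Those of fibroblast markers were highest in control replicate 3. The part of these markers in the sterol pattern was not tested. Fatty acid genes had mean deviations of −0.09, −0.01 and 0.11 in control replicates 1 to 3, the last raised by Scd2: their median deviation in control replicate 3 was −0.04.

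**Figure D2:**
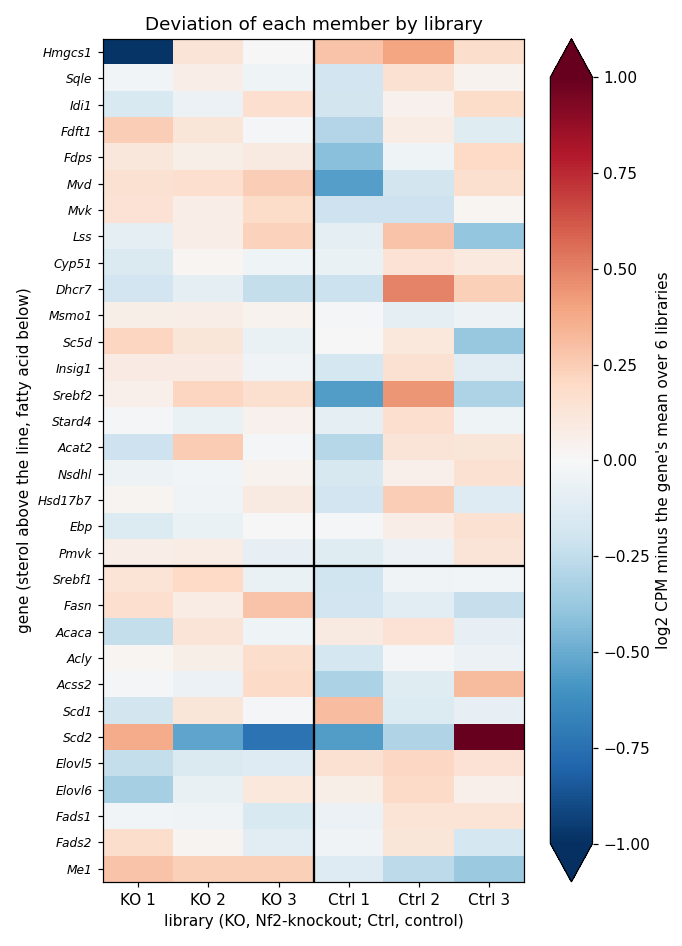
Log2 CPM of each gene in each library minus the gene's mean over the 6 libraries (colour scale from −1 to 1), with sterol genes above the horizontal line and Nf2-knockout libraries left of the vertical line. Control replicate 1 is blue for most sterol genes (mean −0.18) and control replicate 2 red (mean 0.12), while the deepest single cells are Hmgcs1 in Nf2-knockout replicate 1 and Scd2 in control replicate 3.

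Among the fatty acid genes, Me1 rose. Me1, the cytosolic malic enzyme that supplies NADPH for lipid synthesis (ENSMUSG00000032418, chromosome 9, 86581371 to 86695953, minus strand), measured 140, 135 and 135 CPM in the knockout libraries and 104, 95.6 and 88.6 CPM in the controls. The knockout values were tightly grouped and all lay above the highest control. Its log2 fold change was 0.51 (SE 0.0878, interval 0.30 to 0.71, edgeR adjusted p = 0.0171), a rise of 42.1%. The Me1 call held in each of 8 alternatives that kept all 6 libraries, at a log2 fold change of 0.51 to 0.61 and an adjusted p between 0.000468 and 0.0444. It was lost when knockout 1, knockout 3 or control 2 was left out, where the log2 fold changes stayed within the range from 0.45 to 0.57 and adjusted p reached 0.0677.

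Elovl5, an elongase of polyunsaturated fatty acids, fell. Elovl5 (ENSMUSG00000032349, chromosome 9, 77917364 to 77984519, plus strand) measured 51.1, 54.5 and 55.2 CPM in the knockout libraries and 67.1, 69.6 and 66.5 CPM in the controls, with a clear gap between groups. The log2 fold change was −0.34 (SE 0.0812, interval −0.53 to −0.15, edgeR adjusted p = 0.0465), close to the threshold. DESeq2 kept the call (adjusted p = 0.0492) and the other 7 alternatives did not, with adjusted p up to 0.127. Without any 1 of the 6 libraries it was lost, at log2 fold changes from −0.35 to −0.28.

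Fasn, the multifunctional fatty acid synthase (ENSMUSG00000025153, chromosome 11, 120805846 to 120824547, minus strand), lay just outside the threshold. It measured 185, 173 and 201 CPM in the knockout libraries and 144, 153 and 140 CPM in the controls, so each knockout library was above each control. The log2 fold change was 0.35 (SE 0.0881, interval 0.15 to 0.56), with an adjusted p = 0.0517 in edgeR. Of the 8 alternatives 6 called it, with adjusted p from 0.0197 to 0.128 over all 8, and none of the 6 fits without 1 library did (adjusted p from 0.0732 to 0.148).

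**Figure D3:**
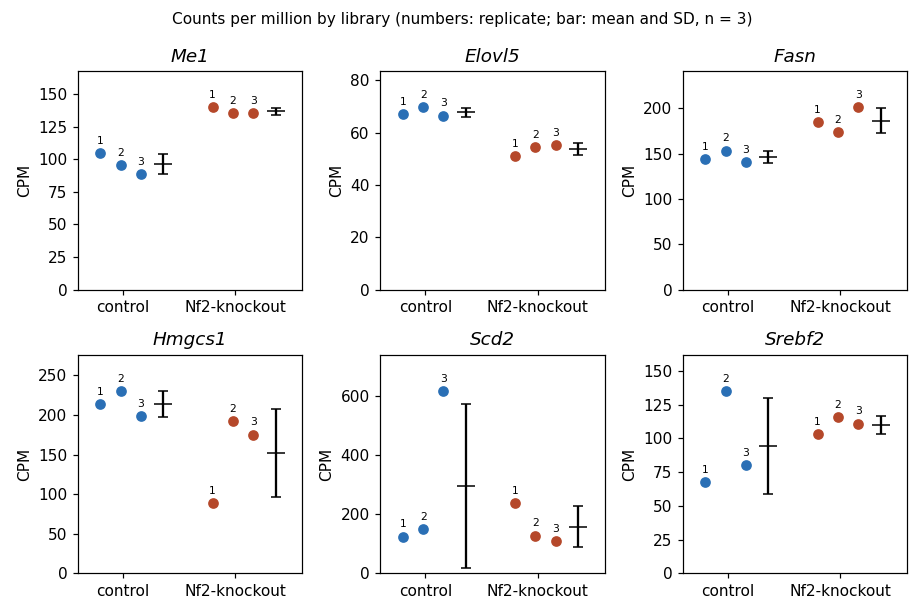
CPM by library for 6 genes, with the replicate number above each point and the mean with its SD (n = 3) beside each group. Me1, Elovl5 and Fasn show groups that do not overlap, whereas Hmgcs1 (88.7 CPM in Nf2-knockout replicate 1), Scd2 (617 CPM in control replicate 3) and Srebf2 (67.7 to 135 CPM among controls) show scatter within a group.

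The suppliers of acetyl-CoA and malonyl-CoA were not called. Acly, ATP citrate lyase, measured 236, 242 and 262 CPM in the knockout libraries and 206, 231 and 224 CPM in the controls. The groups did not overlap, by a narrow margin, and the log2 fold change was 0.16 (interval −0.04 to 0.37, edgeR adjusted p = 0.293). Acss2, which makes acetyl-CoA from acetate, had a log2 fold change of 0.06 (interval −0.36 to 0.47). Acaca, acetyl-CoA carboxylase, stood at 60.1 ± 7.64 against 64.3 ± 5.12 CPM (log2 fold change −0.10, interval −0.38 to 0.19). Srebf1 (chromosome 11, 60199089 to 60222581, minus strand) measured 77.3, 80.8 and 67.3 CPM in the knockout libraries and 61.3, 68.6 and 69.0 CPM in the controls. Knockout replicate 3 fell within the control range (log2 fold change 0.18, interval −0.06 to 0.42, edgeR adjusted p = 0.338).

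The desaturase genes were not called, and Scd2 was dominated by a single library. Scd1, the main stearoyl-CoA desaturase and the most abundant member of the set (chromosome 19, 44394455 to 44407709, minus strand), measured 564, 695 and 630 CPM in the knockout libraries and 793, 581 and 605 CPM in the controls. The groups overlapped, with control replicate 1 the highest of the 6 libraries (log2 fold change −0.07, interval −0.41 to 0.27, edgeR adjusted p = 0.822). Scd1 is also high in adipocytes, and the 12 adipocyte markers summed to 1396, 1392 and 1719 CPM in the knockout libraries and 1614, 1126 and 1587 CPM in the controls. None of the 12 was called in the main edgeR fit, and DESeq2 called 1. In the main fit 2 had an unadjusted p under 0.05, Plin4 (log2 fold change 0.63, edgeR adjusted p = 0.0597) and Fabp4 (−0.41, 0.199). With library totals, with the replicate number as a block and without control replicate 1, edgeR called 1 higher. The limma fits with a filter, at a pseudocount of 1 or 0.1, also called 1 higher. Among all tested genes edgeR called 9.29%, and 24.8% had an unadjusted p under 0.05.

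Scd2 (chromosome 19, 44293674 to 44306864, plus strand), another desaturase gene of the same cluster, measured 237, 128 and 110 CPM in the knockout libraries and 125, 149 and 617 CPM in the controls. Control replicate 3 was 2.60 times the next highest library, while the other 5 values overlapped between groups. The log2 fold change was −0.91 (SE 0.630, interval −2.39 to 0.58, edgeR adjusted p = 0.437), and without control replicate 3 its sign turned, to 0.21. Only 8 of the 5862 tested genes in the range, Scd2 included, had so large a gap above the next library, and of these Scd2 alone was highest in control replicate 3. Scd1 in that library was 605 CPM, within the range of the other controls, and the neighbouring Scd3 and Scd4 were at 0.350 and 0.315 CPM there. How reads that match more than 1 desaturase gene were divided is not stated in the labels. Fads1 and Fads2, the neighbouring desaturases of polyunsaturated fatty acids, had log2 fold changes of −0.14 (interval −0.35 to 0.07) and 0.06 (interval −0.21 to 0.32). Elovl6, the elongase of saturated chains, measured 51.4, 61.6 and 69.7 CPM in the knockout libraries and 67.4, 73.9 and 67.0 CPM in the controls, and the groups overlapped (log2 fold change −0.19, edgeR adjusted p = 0.413).

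On the FPKM scale, which allows levels of different genes to be set side by side, Scd1 stood highest, at 120 ± 12.5 FPKM in Nf2-knockout and 117 ± 21.2 FPKM in control libraries. Insig1 followed at 70.0 ± 2.76 and 61.7 ± 7.72 FPKM, then Fads1 at 48.7 ± 1.89 and 50.1 ± 3.64 FPKM. The spreads of Scd1 and Insig1 did not meet in either group, whereas Fads1 and the next gene, Fads2 (44.9 ± 4.10 and 40.2 ± 4.26 FPKM), had library values that overlapped in Nf2-knockout libraries. The lowest members were Acss2, at 2.93 ± 0.300 and 2.62 ± 0.592 FPKM, and Acaca, at 3.28 ± 0.419 and 3.27 ± 0.276 FPKM. Every member was detected in each library, with counts per library from 1448 to 47038.

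**Figure D4:**
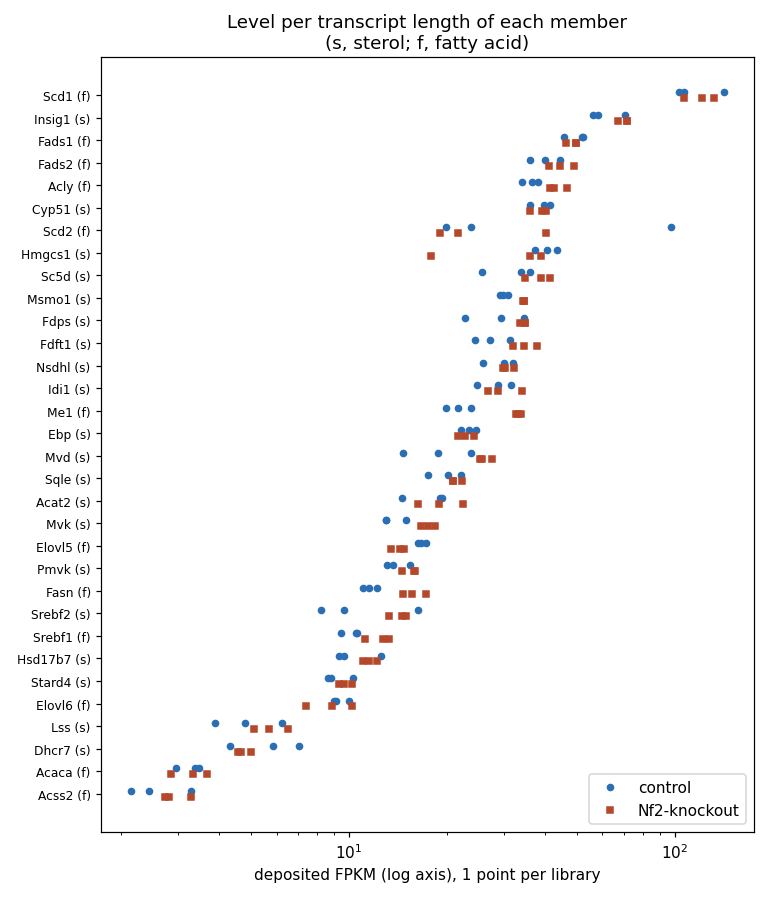
Deposited FPKM of each gene in each library on a log axis, ordered by the mean over 6 libraries, with control libraries as blue circles and Nf2-knockout libraries as red squares. Levels span from Acss2 (about 2.62 FPKM in controls) to Scd1 (117 FPKM in controls), and the groups lie close together for most genes.

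Genes around the pathway were examined as further lists. Among 10 tested genes that sense sterols or process SREBP, 1 rose and 1 fell, beside 4.11% higher and 5.18% lower among all tested genes. Erlin1, an endoplasmic reticulum protein that takes part in INSIG turnover and SREBP retention, rose from a mean of 25.0 to 35.2 CPM (a log2 fold change of 0.49 with SE 0.111, edgeR adjusted p = 0.0380), a call held in 1 of 6 fits without 1 library. Mbtps2, the intramembrane protease that releases SREBP, fell from 30.8 ± 0.862 to 23.6 ± 0.983 CPM (log2 fold change −0.38, edgeR adjusted p = 0.0491), a call held in 0 of those 6 fits. Rnf145 (log2 fold change 0.43, edgeR adjusted p = 0.0790) and Erlin2 (0.24, adjusted p = 0.136) were not called. The SREBP escort gene Scap (60.8 against 61.4 CPM) and its partner Insig2 (75.2 against 76.2 CPM), named here after their values were seen, were close to equal in mean.

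Of 16 other tested sterol and isoprenoid enzymes, 0 rose and 1 fell, beside 4.11% higher and 5.18% lower among all tested genes. The fall was in Acat1, the mitochondrial acetoacetyl-CoA thiolase, from 149 ± 8.83 to 111 ± 1.94 CPM (log2 fold change −0.42, edgeR adjusted p = 0.0219, 2 of 6 fits). Soat1, which esterifies cholesterol, had a log2 fold change of −0.39 (adjusted p = 0.0700), Tmem97 0.27 (adjusted p = 0.111) and Fnta, a subunit of protein prenyltransferases, 0.29 (adjusted p = 0.141), none of them called by edgeR. Among the genes of sterol uptake and transport, the lipoprotein receptor gene Vldlr had a log2 fold change of 0.73 (adjusted p = 0.0662), Gramd1a −0.30 (adjusted p = 0.128) and Gramd1c −1.16 (adjusted p = 0.162), each without a call in edgeR.

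Genes of LXR, the oxysterol receptor, and of sterol efflux had 0 rises and 1 fall among 16 tested. Among all tested genes 4.11% were called higher and 5.18% lower. Of the 16 log2 fold changes 12 were below 0, and their median was −0.23. Without adjustment, 1 was higher and 7 were lower at p under 0.05 in edgeR, and DESeq2 called 5 lower. Over all 18218 tested genes, edgeR had 2110 higher and 2408 lower at that unadjusted threshold (24.8%), and DESeq2 called 1361 of 27066 lower. The 27066 are all genes with a DESeq2 p-value, where one without an adjusted p counts as not called. They include low-count genes that edgeR's filter removed, so the 2 backgrounds are not alike. Cyp7b1, an oxysterol hydroxylase, fell from 42.3 ± 12.2 to 12.2 ± 2.79 CPM (a log2 fold change of −1.79, edgeR adjusted p = 0.00978), a call held in all 6 fits without 1 library. Smpdl3a (log2 fold change −0.37, adjusted p = 0.0569), Abcg4 (−1.36, adjusted p = 0.0626) and Ch25h, which makes an oxysterol from cholesterol (−0.58, adjusted p = 0.0729), missed the threshold in edgeR. The sterol exporter gene Abca1, also named after its value was seen, stood at 68.6 against 75.4 CPM (log2 fold change −0.14, adjusted p = 0.590). Macrophage markers were also lower in the knockout libraries: 6 of 14 tested fell and 0 rose, beside 5.18% lower among all tested genes. By replicate, the efflux genes summed to 792.5, 796.3 and 926.2 CPM in the knockout libraries and 1027, 1004 and 1016 CPM in the controls. Apoe, named after its values were seen, was the most abundant of them and weighed on the order of these sums. It was counted 9052, 8655 and 21179 times in the knockout libraries and 15421, 14216 and 17409 times in the controls. The macrophage markers summed to 114, 87.4 and 50.1 CPM in the knockout libraries and 162, 433 and 214 CPM in the controls. None of these markers was at 0 in all libraries. The most abundant of them were Lyz2, Cd68 and C1qb, with log2 fold changes of −1.96 (adjusted p = 0.0890), −0.76 (0.0369) and −2.85 (0.0327) in edgeR. With 1 library left out, 0 macrophage markers fell (leaving out knockout 1, knockout 3, control 2 or control 3), 1 fell (knockout 2) or 3 fell (control 1). Their part in the efflux values was not tested.

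Of 32 other tested genes of fatty acid synthesis and its cofactors, 2 rose and 3 fell, and of 22 genes of triglyceride and phospholipid synthesis 0 rose and 1 fell, beside 4.11% higher and 5.18% lower among all tested genes. The strongest change in these lists was in Hacd2, a dehydratase of the fatty acid elongation cycle, which measured 34.8, 37.6 and 34.7 CPM in the knockout libraries and 97.1, 80.9 and 109 CPM in the controls (log2 fold change −1.42, SE 0.126, edgeR adjusted p = 0.00317). Every knockout library was below every control, and the call held in all 6 fits without 1 library. Its paralog Hacd3 fell from 104 ± 7.01 to 63.9 ± 3.73 CPM (log2 fold change −0.70, edgeR adjusted p = 0.00787, 6 of 6 fits). Me2, the mitochondrial malic enzyme, rose from 29.8 ± 1.37 to 48.9 ± 3.18 CPM (log2 fold change 0.71, edgeR adjusted p = 0.00828, 6 of 6 fits), and G6pdx, which makes NADPH in the pentose phosphate pathway, from 159 ± 13.7 to 235 ± 28.0 CPM (log2 fold change 0.57, edgeR adjusted p = 0.0285, 2 of 6 fits). The remaining fall was in Tecr, the reductase that closes the elongation cycle (log2 fold change −0.38, edgeR adjusted p = 0.0355, 0 of 6 fits). Lpin1, a phosphatidate phosphatase of triglyceride synthesis, fell from 117 ± 12.1 to 74.1 ± 13.9 CPM (log2 fold change −0.66, edgeR adjusted p = 0.0380, 1 of 6 fits). Agpat2 (0.36, adjusted p = 0.0710), Pnpla2 (−0.28, adjusted p = 0.0802) and Dgat1 (−0.42, adjusted p = 0.111) were not called by edgeR.

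Marker genes of other cell types and of the cell cycle also differed between the groups. The counts below stand beside 4.11% called higher and 5.18% called lower among all tested genes. Of 10 tested markers of cycling cells 8 rose and 0 fell, their summed level running from 684 to 732 CPM in the knockout libraries and from 307 to 398 CPM in the controls, with Rrm2 (log2 fold change 1.72, edgeR adjusted p = 0.00823), Mcm2 (0.90, 0.0107) and Mcm5 (0.95, 0.0119) foremost. With 1 library left out, 3 of them rose (leaving out knockout 3 or control 2), 4 rose (knockout 1 or 2) or 5 rose (control 1 or 3). Of 9 tested fibroblast markers 0 rose and 2 fell, Pdgfra (log2 fold change −1.42, edgeR adjusted p = 0.00332) and Lum (−1.78, 0.0264), and 1 to 3 fell without 1 library. Cartilage markers gave 1 rise, Col2a1 (1.33, edgeR adjusted p = 0.0446), and 1 fall, Col9a2 (−1.55, 0.0482), among 14 tested. With 1 library left out, 2 cartilage markers rose and 0 fell (leaving out knockout 3), 0 rose and 1 fell (knockout 2) or 0 did either (each of the other 4 libraries), and 0 did either with the replicate block. The part of these differences in the values of Me1, Elovl5 and the other members was not tested.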

How the data were processed

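Poly(A) RNA of 6 libraries of primary mouse chondrocytes was sequenced, and the sample titles gave the groups and replicate numbers. Per the submitters' processing notes, the tools were edgeR, StringTie 1.3.4d, HISAT2 2.0.4 and cutadapt 1.9, with no role stated. The genome build is not stated there. Positions equalled those of GENCODE M21 (GRCm38) for 94.2% of the 55141 genes with an entry, and for 28 of the 32 members. The authors deposited whole-number counts per gene, which may be rounded estimates of coverage, since how they were obtained is not stated. The authors also deposited FPKM values. Within each of the 32 members these were proportional to counts over library depth to within a factor of 0.996 to 1.01. Where a count was 0 the FPKM was written as 0.0001.

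From the counts, edgeR 4.0.16 (R 4.3.3) was run with its filter on low counts, TMM scaling, the quasi-likelihood test on the 6 libraries without a block, and Benjamini-Hochberg adjustment over all 18218 tested genes. A gene was called at an adjusted p under 0.05. Intervals of 95% came from the test's standard error. Tested on data simulated from these counts, the fit returned fold changes near the true ones with no wrong sign among its calls. The simulation drew on the dispersions of the same fit, so it checks the code rather than the model. Its smallest planted change was 1.5-fold, larger than the estimates for Me1, Fasn and Elovl5, so it did not test changes of their size. Alternatives used DESeq2 1.42.0, limma 3.58.1 on log2(FPKM + pseudocount of 1 or 0.1), other scaling, other filters, the replicate number as a block and each library left out. All 32 members are named, as are up to 4 tested genes with the smallest p-values of each related list and the 3 most abundant markers where they bear on a result. A result for sterol uptake and transport is not reported here. The members and lists were chosen with earlier results of these data known. No 2 libraries were alike within sampling noise.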

Additional observations from a re-analysis of the deposited data

How the results depend on the processing

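None of the 20 sterol genes was called in any of 8 alternatives with all 6 libraries or without any 1 library (0 to 0 higher and 0 to 0 lower). The number of them with an unadjusted p under 0.05 was 1 in the main analysis, 4 with library totals and in each of the 3 limma fits, and 2 with the replicate block. The number of genes called over the whole table was 1693 in the main analysis, 2637 with DESeq2, 1062 with limma on log2(FPKM + 1) without a filter, 923 with the replicate block, and 629 to 1186 without 1 library. Of the fatty acid genes, 2 were higher (Fasn and Me1) with DESeq2, with DESeq2 size factors in edgeR, with library totals only and in the 3 limma fits. Elovl5 was not called, leaving 0 lower, with DESeq2 size factors, library totals, no filter on low counts, the 3 limma fits and the replicate block, and without 1 library 0 to 1 were higher and 0 to 0 lower.

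The median log2 fold change of all genes was −0.01 with TMM scaling and 0.09 with library totals, 0.08 with limma on log2(FPKM + 1) and 0.10 with a pseudocount of 0.1, and several small values changed sign with it. Sqle became 0.012 with DESeq2, 0.0097 with DESeq2 size factors, 0.091 with library totals, and 0.0958 or, with a pseudocount of 0.1, 0.1002 in the limma fits. With library totals Idi1 became 0.0732, Stard4 0.0701, Nsdhl 0.0675, Acaca 0.0002 and Scd1 0.0298. With limma on log2(FPKM + 1), with or without a filter, Idi1 was 0.0734, Stard4 0.0696, Nsdhl 0.0729, Acaca 0.0005 and Scd1 0.0423, and with a pseudocount of 0.1 Idi1 was 0.0756, Stard4 0.0765, Nsdhl 0.0752 and Scd1 0.0427.

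Without 1 library the sign also turned for Sqle (−0.0955 to 0.0736), Idi1 (−0.1186 to 0.0604), Lss (−0.0325 to 0.3092), Stard4 (−0.0787 to 0.0531), Acat2 (−0.1061 to 0.1434), Nsdhl (−0.1141 to 0.04), Hsd17b7 (−0.0424 to 0.1879), Pmvk (−0.0153 to 0.1122), Acaca (−0.1865 to 0.0123), Acss2 (−0.0742 to 0.2562), Scd1 (−0.1515 to 0.0859), Scd2 (−1.2984 to 0.21) and Fads2 (−0.0124 to 0.1355). The causes of these shifts were not tested. None of these genes was called in any setting.

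Same-numbered knockout and control libraries deviated from their group means with correlations of −0.16, 0.01 and 0.02, so no pairing by number was visible. With 3 libraries a group these values cannot exclude shared animals or batches. With the replicate number as a block Me1 was called (0.51, edgeR adjusted p = 0.0444) and Elovl5 was not (−0.34, adjusted p = 0.111). With 3 libraries a group, the median standard error of a sterol log2 fold change was 0.12, and for 4 of the 20 sterol genes the 95% interval reached past a 1.5-fold change.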

Other observations

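The genes of the fatty acid elongation cycle were gathered as a set after their values were seen, so their counts are a description. Of 13 such genes 11 were tested, of which 0 rose and 4 fell (Elovl5, Hacd2, Hacd3 and Tecr), beside 4.11% higher and 5.18% lower among all tested genes. The calls of Elovl5 and Tecr were lost without any 1 library, and those of Hacd2 and Hacd3 held in all 6 such fits. Tecr, the enoyl-CoA reductase of the cycle, measured 145, 132 and 133 CPM in Nf2-knockout and 169, 177 and 188 CPM in control libraries, without overlap. Its log2 fold change was −0.38 (edgeR adjusted p = 0.0355). Elovl7 (3.44 ± 0.370 against 5.38 ± 0.329 CPM, n = 3 each) and Hacd1 (21.8 ± 1.53 against 27.5 ± 2.94 CPM) also had groups that did not overlap but were not called by edgeR (adjusted p = 0.0786 and 0.138). The ketoacyl-CoA reductase Hsd17b12 had a mean of 149 CPM against 126 CPM, where control replicate 2 was low at 83.2 CPM. Hacd4, another dehydratase of the family, was at 67.6 against 67.1 CPM.

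Malic enzymes, Idh1 and the NADPH-forming enzymes of the pentose phosphate pathway were likewise gathered after their values were seen, so their counts are also a description. Me1 and G6pdx, whose enzymes form NADPH, rose, as did Me2, whose mitochondrial enzyme chiefly uses NAD. Pgd, the next NADPH-forming enzyme of the pentose phosphate pathway after G6pdx, measured 257, 232 and 244 CPM in Nf2-knockout and 184, 178 and 207 CPM in control libraries, without overlap, at a log2 fold change of 0.37 and an edgeR adjusted p = 0.0505. Me3 (25.4 against 26.2 CPM) and Idh1 (311 against 295 CPM) overlapped between the groups and were not called.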
